A study of Mus musculus with 6 samples.

Results

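The components of the classical and alternative complement pathways were examined along the cascade in the frontal cortex of GFAP-IL6 and wild-type (WT) mice. The genes were C1qa, C1qb and C1qc, C1ra, C4b and C4a, C2, C3 and Cfb. Members were chosen by an exact match of the gene symbol, which gave 8 of the 9 named genes among the 33000 genes of the count table. C4a had no row and was not analysed here. Of the 8 genes, 7 passed the filter on low counts, and Cfb did not. RNA was sequenced with the TruSeq mRNA protocol from 3 homozygous GFAP-IL6 mice and 3 WT C57BL/6 mice. All were 3 months old, with a separate library for each mouse. In the GFAP-IL6 mouse the Gfap promoter drives a transgene for the cytokine IL6 in astrocytes, so that IL6 comes from a transgene rather than an acute challenge. The WT libraries totalled between 11591066 and 16877001 counts and the GFAP-IL6 libraries between 7559524 and 11072008. As a check of the labels, Il6 was at 0, 0.119 and 0 CPM (the count of a gene for each 1000000 counts of the scaled library) in WT replicates 1, 2 and 3 and at 1.08, 1.32 and 2.68 CPM in the GFAP-IL6 replicates. WT replicate 3 stood apart in choroid plexus markers, whose sum of 614 CPM there compared with at most 60.1 CPM in GFAP-IL6, and the number of complement components called was 5 with and without it. Values after ± are SDs over the 3 libraries of a group unless an SE is named.

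Complement is a cascade of plasma proteins that tags targets for uptake by phagocytes and can lead to lysis of a membrane. In the classical pathway, C1q, a hexamer of trimers built from the products of C1qa, C1qb and C1qc, binds its target and activates the proteases C1r and C1s. C1s cleaves C4 and C2, whose fragments together form the convertase that cleaves C3, and the alternative pathway amplifies C3 cleavage through factor B, the product of Cfb. In the brain, C1q is made largely by microglia, and C1q and C3 are known for tagging synapses that microglia engulf during development.

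The C4 genes are shown first because their near identity limits what the count of either can mean. In the mouse, C4b encodes complement C4, and C4a is its neighbour, known for the sex-limited protein. Release M21 of the GENCODE annotation on GRCm38, the assembly also called mm10, places C4b on chromosome 17 from 34728380 to 34743882 and C4a from 34809092 to 34823464, both on the minus strand. It types C4b as protein coding and C4a as a processed transcript. Over 5367 aligned bases, the C4b and C4a transcripts were 96.1% identical, with 207 differing bases, of which 201 lay in the 5214-base coding part of C4b. The stretch of 60 coding bases with the most differences lay in exon 21 of 41 in both genes, at chr17:34735430-34735489 in C4b and chr17:34816086-34816145 in C4a. The pair is printed 5′ to 3′ on the transcribed minus strand, and the capitals mark the 13 bases that differ.
C4b: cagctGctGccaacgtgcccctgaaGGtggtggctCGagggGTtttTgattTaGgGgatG
C4a: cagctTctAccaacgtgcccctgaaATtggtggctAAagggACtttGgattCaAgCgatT

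How far a read can tell the members apart was measured by cutting 1 transcript of each gene into 75-base windows and searching every other gene's transcripts for each window. In C4b, 23.5% of the 5305 windows also occurred in C4a, and 76.5% occurred in no other gene. The shared windows were spread unevenly, with all of those that start between bases 701 and 1000 of the C4b transcript held by both genes. No window of C1qa, C1qb, C1qc or C3 occurred in another gene. In C1ra, 42.4% of windows also occurred in C1rb or Gm18840, and the row of C1rb held 0 counts in all 6 libraries. In C2 and Cfb, 55.6% and 81.2% of windows also occurred in Gm20547, a gene model that spans exons of both. The row of Gm20547 held 0 counts in all 6 libraries. The study counted uniquely aligned reads, and the setting for reads on overlapping genes is not given in the sources used here. C4b and C1ra share windows with genes at other positions, where a read may fail to align uniquely and be left out. C2 and Cfb share theirs with Gm20547 at the same bases of the genome. A read there can align uniquely, and its count depends on the setting for overlapping genes. The counts of C4b, C1ra, C2 and Cfb may therefore be too low, by amounts that were not measured.

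**Figure D1:**
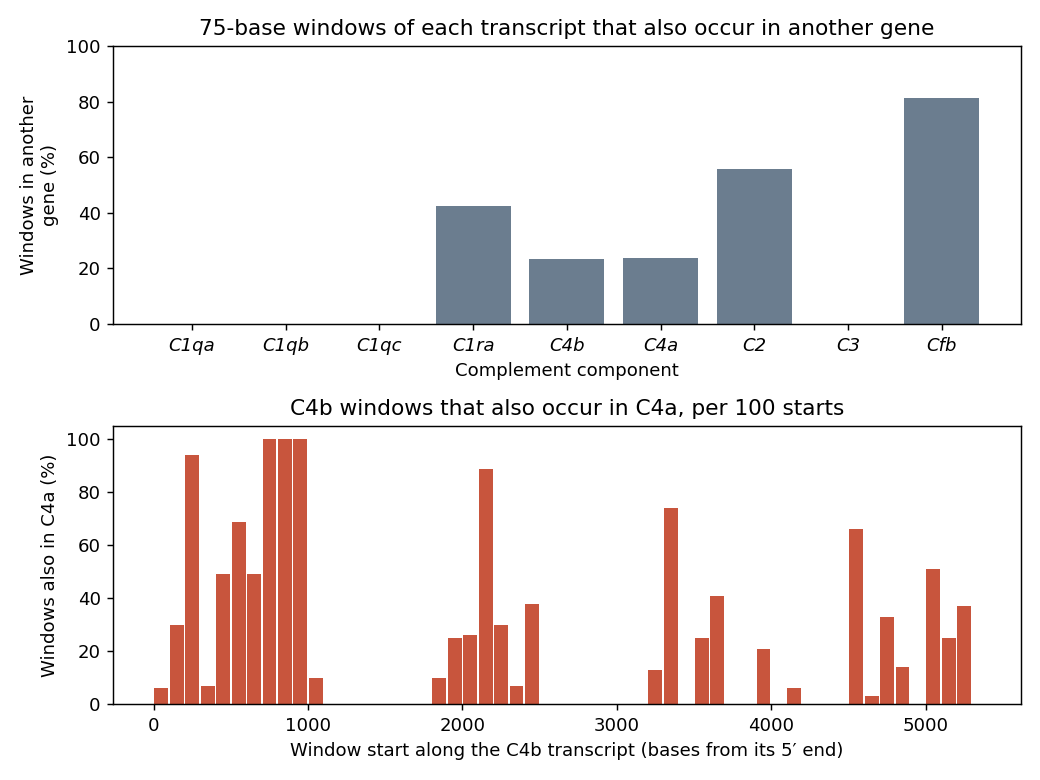
The upper bars give the percent of 75-base windows of each member's transcript that also occur in the transcript of another gene, and the lower bars give the percent of C4b windows also found in C4a for each 100 window starts along the transcript. C1qa, C1qb, C1qc and C3 share none, C4b shares 23.5% with C4a, and Cfb shares the most at 81.2%.

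Along the cascade, C4b, C3 and the 3 C1q genes rose in GFAP-IL6 cortex, while C1ra, C2 and Cfb were not called. C4b and C3 rose by 27.8-fold and 31.4-fold, and C1qa, C1qb and C1qc rose by between 2.84-fold and 3.05-fold. A call required an adjusted p below 0.05 and a log2 fold change beyond 1 in either direction, by the quasi-likelihood test of edgeR over 15341 genes. By this rule 5 of the 7 genes tested were called higher, against 1.36% of all genes tested. By the adjusted p alone, 5 were higher against 2.65% of all genes, and 0 were lower against 0.209% of all genes, with 0 lower at an unadjusted p under 0.05 and 0 by DESeq2. The groups did not overlap for the same 5 genes, with each GFAP-IL6 library above each WT library, against 13.8% of all genes tested. The median log2 fold change of the 7 genes was 1.54, and that of all genes tested was 0.00. The count of 5 was obtained in all 14 alternative fits.

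**Figure D2:**
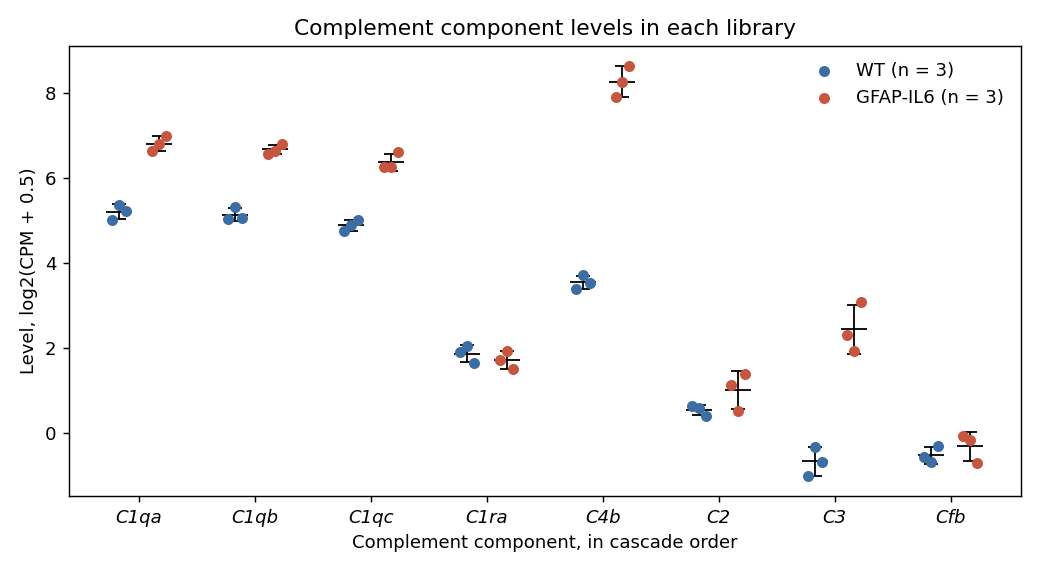
Points give the level of each complement component in each library as log2(CPM + 0.5), and lines give the mean and SD of 3 libraries per group. The GFAP-IL6 points lie above all WT points for C1qa, C1qb, C1qc, C4b and C3, and the groups overlap for C1ra, C2 and Cfb.

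The cascade was first followed at C1q, the recognition molecule. The 3 genes lie together on chromosome 4, where C1qb begins at 136880129 and C1qa ends at 136898803, all on the minus strand, in a cluster of 18675 bases. C1qa was at 31.9, 41.0 and 37.2 CPM in WT replicates 1, 2 and 3 and at 99.3, 112 and 126 CPM in the GFAP-IL6 replicates. C1qb was at 32.5, 39.1 and 32.8 CPM in WT and at 94.9, 99.8 and 111 CPM in GFAP-IL6. C1qc was at 26.7, 29.3 and 31.8 CPM in WT and at 76.2, 76.3 and 97.1 CPM in GFAP-IL6. For each of the 3 genes, the lowest GFAP-IL6 library was above the highest WT library, and GFAP-IL6 replicate 3 was the highest library. The log2 fold changes were 1.61 for C1qa, 1.54 for C1qb and 1.5 for C1qc, with 95% intervals of 1.36 to 1.85, 1.33 to 1.76 and 1.26 to 1.74. The adjusted p values from edgeR were 5.5e-06, 3.8e-06 and 7.4e-06. In rank by p among the 15341 genes, C1qb was number 5, C1qa number 11 and C1qc number 16.

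The 3 chains of C1q kept the same order of transcript levels in both groups. Per transcript length, in TPM, which sum to 1000000 in each library, the levels in WT were 97.7 ± 9.47 for C1qa, 88.7 ± 7.10 for C1qb and 67.5 ± 5.41 for C1qc. In GFAP-IL6 they were 315 ± 35.2, 273 ± 20.4 and 202 ± 28.5 TPM. The TPM ranges of C1qa and C1qb over libraries overlapped in both groups. Within each library of both groups, C1qa lay above C1qb and C1qb lay above C1qc in TPM. The TPM ratio of C1qa to C1qb was 1.10 ± 0.079 in WT and 1.15 ± 0.0499 in GFAP-IL6, and that of C1qc to C1qb was 0.765 ± 0.102 and 0.737 ± 0.0513. On the log2 scale the ratio of C1qa to C1qb differed between the groups by 0.06, with an exact permutation p of 0.5, and that of C1qc to C1qb by -0.05, with an exact permutation p of 0.7. These differences were smaller than the spread between replicates.

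C1q was compared with microglia, its main source in the brain, within each library. Of 10 microglial markers, 6 were higher at an adjusted p under 0.05, among them Tmem119, Cx3cr1, Csf1r, Aif1 and Fcrls, and 0 were lower. Of all genes tested, 2.65% were higher and 0.209% lower at that threshold. Sall1, Siglech, P2ry12 and Gpr34 did not pass. The log2 fold changes were 0.34 for Sall1 and 0.40 for Siglech, but -0.27 for P2ry12 and -0.22 for Gpr34. The median log2 fold change of the 10 markers was 0.68, and their summed level was between 398 and 499 CPM in WT and between 670 and 771 CPM in GFAP-IL6. The log2 ratio of C1q to the mean of these markers was 0.08 ± 0.08 in WT and 1.12 ± 0.07 in GFAP-IL6, where C1q is the mean log2(CPM + 0.5) of its 3 genes. The ratio was thus 2.05-fold higher in GFAP-IL6, with no overlap of the groups. An exact two-sided permutation test over the libraries gave a p of 0.1, the lowest value possible with 3 libraries a group. C1q was higher relative to these markers as well as in absolute CPM. In bulk tissue, more cells of a type and more RNA per cell cannot be told apart.

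The next step is the protease C1r, which C1q activates. C1ra, on chromosome 6 from 124512405 to 124523443 on the plus strand, was at 3.22, 3.64 and 2.64 CPM in WT and at 2.78, 3.30 and 2.34 CPM in GFAP-IL6. The groups overlapped, and these levels rest on between 21 and 61 counts per library. The log2 fold change was -0.18 with a 95% interval of -0.70 to 0.34 and an adjusted p of 0.697 (edgeR). The interval lies below the intervals of all 3 C1q genes. Within libraries, the log2 ratio of C1ra to C1q was -3.21 ± 0.21 in WT and -4.91 ± 0.34 in GFAP-IL6, a ratio 0.31 times that in WT, with an exact permutation p of 0.1.

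C1s1, the protease partner of C1ra, lies 6901 bases away from it. C1s1 was at 1.65, 2.27 and 2.01 CPM in WT and at 3.14, 3.17 and 2.68 CPM in GFAP-IL6, so that the groups did not overlap. The log2 fold change of 0.58 did not pass, with an adjusted p of 0.206 (edgeR). The TPM ratio of C1s1 to C1ra was 0.583 ± 0.115 in WT and 0.993 ± 0.0939 in GFAP-IL6. That ratio was not among those tested, and 18.4% of the exon bases of C1s1 are overlapped by Gm16567 on the opposite strand.

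C4, the first substrate of C1s, showed the smallest p of all 15341 genes. C4b was at 10.02, 12.6 and 11.1 CPM in WT and at 241, 308 and 395 CPM in GFAP-IL6. The lowest GFAP-IL6 library was far above the highest WT library. Behind these levels stood between 115 and 211 counts per WT library and between 2336 and 3539 per GFAP-IL6 library. For C4b, the log2 fold change was 4.8 ± 0.18 (SE), with a 95% interval of 4.41 to 5.18 and an adjusted p of 2.9e-08 by edgeR. Per transcript length, C4b stood at 5.79 ± 0.493 TPM in WT and at 170 ± 40.8 TPM in GFAP-IL6. It was 0.0653 ± 0.00305 times the level of C1qb in WT and 0.62 ± 0.104 times that level in GFAP-IL6. C4b lay below C1qc in TPM within each library of both groups. In the GFAP-IL6 replicates, C4b was 0.513, 0.625 and 0.721 times C1qb, and C1qc was 0.726, 0.691 and 0.792 times C1qb. Over libraries, the GFAP-IL6 range of C4b, from 132 to 213 TPM, overlapped that of C1qc, from 184 to 234 TPM.

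Both C4b and the C1q genes rose, and C4b rose by more. The log2 ratio of C4b to C1q was -1.53 ± 0.04 in WT and 1.65 ± 0.21 in GFAP-IL6, a difference of 3.18 or 9.08-fold, with an exact permutation p of 0.1. Astrocytes, in which the transgene is expressed, are a known source of C4 in the brain. Of 10 astrocyte markers, which did not include Gfap, 0 passed at an adjusted p under 0.05 by edgeR, 3 had an unadjusted p under 0.05, and 2 passed by DESeq2. The groups lay apart for 3 of the markers, 2 of them higher and 1 lower in GFAP-IL6. Of all 15341 genes tested, 2114 lay apart higher and 1953 lower, and 3139 had an unadjusted p under 0.05 by edgeR. The log2 fold changes of the 10 astrocyte markers were between -0.21 and 0.42 with a median of 0.03. The summed level of these markers was between 5680 and 7077 CPM in WT and between 6235 and 7307 CPM in GFAP-IL6. Beside these markers, the log2 ratio of C4b was -4.29 ± 0.12 in WT and 0.37 ± 0.22 in GFAP-IL6, a 25.2-fold difference with an exact permutation p of 0.1. Gfap itself, the promoter of the transgene, was at 76.5, 123 and 84.2 CPM in WT and at 517, 646 and 870 CPM in GFAP-IL6.

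C2, which joins the C4 fragment in the classical convertase, lies on chromosome 17 from 34862604 to 34898265 on the minus strand, 85 bases from Cfb. C4b, C4a, Cfb and C2 together span 169886 bases. C2 was at 1.05, 1.01 and 0.816 CPM in WT and at 1.70, 0.924 and 2.12 CPM in GFAP-IL6, from between 7 and 19 counts per library. GFAP-IL6 replicate 2 fell within the WT range and replicates 1 and 3 lay above it. Gm20547 overlaps 42.8% of the exon bases of C2 on the same strand, and whether reads there were left uncounted was not tested. The log2 fold change was 0.75 with a 95% interval of 0.00 to 1.5, an unadjusted p of 0.0491 and an adjusted p of 0.242 (edgeR), so C2 was not called. From summed counts of 42 and 45, the ratio was 1.71 with an exact 95% interval of 1.1 to 2.67, which covers counting error only and not the spread between mice. Relative to C1q, C2 was 0.477 times its WT ratio, with no overlap of the groups and an exact permutation p of 0.1.

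C3, where the pathways meet, was nearly absent from WT cortex and was measured in each GFAP-IL6 library. It lies on chromosome 17 from 57203970 to 57228136 on the minus strand. The WT libraries held 0, 5 and 2 counts of C3, or 0, 0.298 and 0.126 CPM, and the GFAP-IL6 libraries held 50, 25 and 71 counts, or 4.48, 3.30 and 7.93 CPM. Of the WT libraries, 2 were thus at or below 3 counts, the floor taken for detection, which stood between 0.179 and 0.261 CPM in WT. The log2 fold change was 4.97 ± 0.53 (SE), with a 95% interval of 3.81 to 6.13 and an adjusted p of 1.7e-04 by edgeR. The size of the rise depended on WT replicate 2, which held 5 of the 7 WT counts, since the log2 fold change of C3 was 5.97 when that library was left out. From the summed counts of 7 and 146, the ratio was 33.3 with an exact 95% interval of 15.7 to 84.2, which covers counting error only. The fold changes of C3 and C4b were alike in size, but the interval of C3 was wider than that of C4b.

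Despite its fold change, C3 stayed among the least abundant members. It was at 0.0748 ± 0.0784 TPM in WT, the lowest of the 8 genes, with a range that overlapped that of Cfb. In GFAP-IL6 it was at 2.97 ± 1.36 TPM, a range that overlapped C1ra above it and C2 below it. C4b was at 170 TPM in the same libraries. Within libraries, the log2 ratio of C3 to C1q rested on the pseudocount. It was 1.56 higher in GFAP-IL6 with 0.5 CPM added, 3.04 with 0.1 CPM and 0.86 with 1 CPM, with no change of direction. The difference in the log2 ratio of C3 to the microglial markers was 2.60, and ranged from 1.90 to 4.08 over the same settings. The log2 ratio of C4b to C3 differed by 1.62, by 0.18 with 0.1 CPM and by 2.28 with 1 CPM, so which of C4b and C3 changed more was not resolved at the WT depth of C3.

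The promoter window of C3 was available, and that of C1ra is printed beside it as a component that was not called. Each window runs from 250 bases before to 50 bases after the RefSeq start on GRCm38.p6, 5′ to 3′ on the gene's strand. Both strands were searched for the STAT core TTCNNNGAA, the C/EBP core TTGCNNAA and the NF-kB consensus, and the capitals mark the matches. STAT3 and C/EBP factors are known to act downstream of IL6. The C3 window, chr17:57228087-57228386, holds a C/EBP core that begins 45 bases before the start. The C1ra window, chr6:124512371-124512670, holds a C/EBP core and a STAT core after the start.
C3 promoter: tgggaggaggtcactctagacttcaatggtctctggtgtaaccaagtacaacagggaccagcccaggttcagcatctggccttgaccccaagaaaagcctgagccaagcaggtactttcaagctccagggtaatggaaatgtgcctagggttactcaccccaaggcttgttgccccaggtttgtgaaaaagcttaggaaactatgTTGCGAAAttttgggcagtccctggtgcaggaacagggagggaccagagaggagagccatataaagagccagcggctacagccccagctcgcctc
C1ra promoter: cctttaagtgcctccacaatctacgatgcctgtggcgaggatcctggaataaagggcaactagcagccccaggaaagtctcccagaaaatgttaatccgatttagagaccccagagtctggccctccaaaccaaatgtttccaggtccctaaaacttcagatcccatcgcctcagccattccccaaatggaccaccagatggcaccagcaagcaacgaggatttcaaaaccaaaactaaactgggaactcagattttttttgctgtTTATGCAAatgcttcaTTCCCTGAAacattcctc

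Windows were also available for C1qb, in which none of the 3 motifs matched, and for C1qc, in which the NF-kB consensus matched 41 bases before the start. No window was available for C1qa, C2, C4a, C4b or Cfb, so the promoter of C4b could not be searched. Over 32851 promoter windows of the same length, 8.3% held the STAT core, 10.8% the C/EBP core and 8.46% the NF-kB consensus. A match describes the letters of the window and not the binding of a factor.

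Cfb, which encodes factor B, the alternative pathway partner of C3, had hardly any counts. Cfb, on chromosome 17 from 34856374 to 34862518 on the minus strand, was counted 2, 2 and 5 times in the WT libraries and 5, 3 and 1 times in the GFAP-IL6 libraries. These are 0.174, 0.119 and 0.314 CPM in WT and 0.448, 0.396 and 0.112 CPM in GFAP-IL6, and the groups overlapped. From 9 counts summed in each group, the ratio was 1.6 with an exact 95% interval of 0.561 to 4.54, for counting error only. A change of Cfb was not detectable at these counts, and the upper end of the interval lies below the lower end for C3. Gm20547 overlaps 79.5% of the exon bases of Cfb on the same strand. Of its own exon bases, 100% lie on exons of C2 or Cfb, and its row held 0 counts in all 6 libraries. Whether reads there were left uncounted was not tested, so the level of Cfb is uncertain. In the fit with no low-count filter, the log2 fold change of Cfb was 0.64 with an adjusted p of 0.72 (edgeR). The log2 ratio of Cfb to C2 differed by -0.27 between the groups, with an exact permutation p of 0.8.

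**Figure D3:**
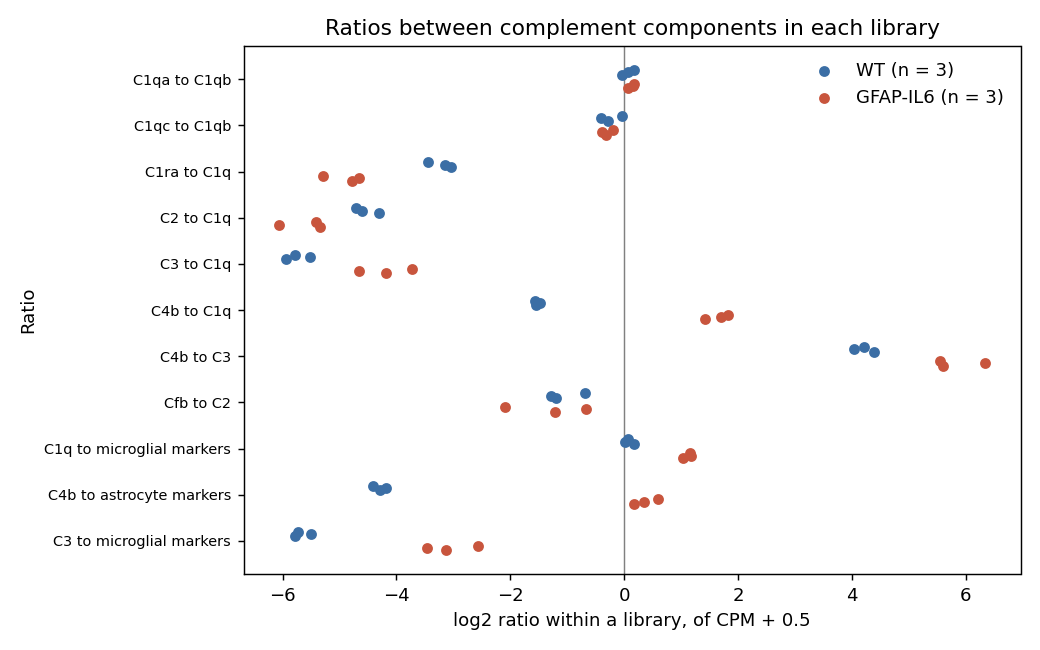
Each point is the log2 ratio of 2 measures within a library, with WT and GFAP-IL6 libraries in separate colours, and C1q or a marker list standing for the mean over its genes. With 0.5 CPM added, the groups lie apart for 8 of the 11 ratios and overlap for C1qa to C1qb, C1qc to C1qb and Cfb to C2. For C4b to C3, the size of the difference depends on the CPM added.

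In all, 11 ratios were compared with 0.5 CPM added. Of these, 8 reached the smallest exact permutation p of 0.1, or 0.138 after Benjamini-Hochberg adjustment over the 11. C4b to C3 was among the 8, but its exact permutation p was 0.9 with 0.1 CPM added. With 3 mice per group no ratio could pass a threshold of 0.05. A ratio within a library does not depend on how libraries are scaled to each other, apart from the pseudocount.

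Other genes that begin or amplify the cascade did not pass in the edgeR fit of all libraries. Of 15 further activation components, 5 passed the low-count filter and 0 passed an adjusted p under 0.05 in either direction by edgeR or by DESeq2, while 2 had an unadjusted p under 0.05. All 5 had log2 fold changes above 0, with a median of 0.17 against 0.00 for all genes tested. The 2 with an unadjusted p under 0.05 were C1s1, at 0.0329, and Cfp, which encodes properdin, the stabilizer of the alternative convertase, at 0.00163. Cfp was at 10.7, 10.6 and 10.5 CPM in WT and at 13.4, 15.3 and 16.2 CPM in GFAP-IL6, with no overlap, a log2 fold change of 0.49 and an adjusted p of 0.0534 (edgeR). Cfp lay close to the threshold and passed it with the replicate block (adjusted p of 0.0473), without WT replicate 1 (0.0487), when thinned to the smallest total (0.0369) and with no low-count filter (0.0239). Masp2, a protease of the lectin pathway, was at 47.8 ± 3.90 CPM in WT and had a log2 fold change of 0.17 with an adjusted p of 0.295. The lectins Mbl1 and Mbl2 and the C1r copy C1rb held 0 counts in all 6 libraries.

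The terminal components, which assemble the membrane attack complex, were scarce. Of 7 genes, only C7 and C8g passed the filter, and 0 passed an adjusted p under 0.05 in either direction by edgeR or by DESeq2, with 0 at an unadjusted p under 0.05. Their summed level was between 3.40 and 5.31 CPM in WT and between 3.17 and 5.92 CPM in GFAP-IL6, and C9 held 0 counts in all libraries. C7 had a log2 fold change of -0.48 with an adjusted p of 0.511, and C8g one of 0.43 with an adjusted p of 0.376. Beside the rise of C1q, C4b and C3, no rise in transcripts of the terminal steps was detectable at these low counts.

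Regulators, which hold the cascade in check, were mostly near WT levels. Of 15 regulators with a row, 13 were tested, and the median log2 fold change of the list was 0.20. The log2 fold change was above 0 for 10 of the 13. Serping1 had a log2 fold change of 0.82, with overlapping groups, an unadjusted p of 0.0111 and an adjusted p of 0.133 (edgeR). Serping1 passed with no low-count filter (adjusted p of 0.00645) and without WT replicate 2 (0.0443). Clu, encoding clusterin, and Susd4 were the most abundant of those that did not pass an adjusted p under 0.05, with log2 fold changes of 0.16 and -0.02. Their adjusted p values by edgeR were 0.39 and 0.904.

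Among the receptors for complement fragments, 4 of the 7 genes tested passed higher and 0 lower, against 2.65% and 0.209% of all genes tested. Their median log2 fold change was 1.62, and that of all genes tested was 0.00. Itgam and Itgax, the alpha chains of the integrins that bind the C3 fragment iC3b, had log2 fold changes of 2.03 and 3.02, and their partner Itgb2 had 1.62. C5ar1, a receptor for the C5 fragment C5a, had 2.20. The adjusted p values by edgeR were 3.0e-07 for Itgam, 0.00101 for Itgax, 1.5e-05 for Itgb2 and 0.00713 for C5ar1. C5ar1 lost its call without GFAP-IL6 replicate 3, with a log2 fold change of 1.80 and an adjusted p of 0.0699. Cd93 and C3ar1, the most abundant that did not pass, had log2 fold changes of 0.48 and 0.92, and C3ar1 passed with the replicate block and with no low-count filter.

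**Figure D4:**
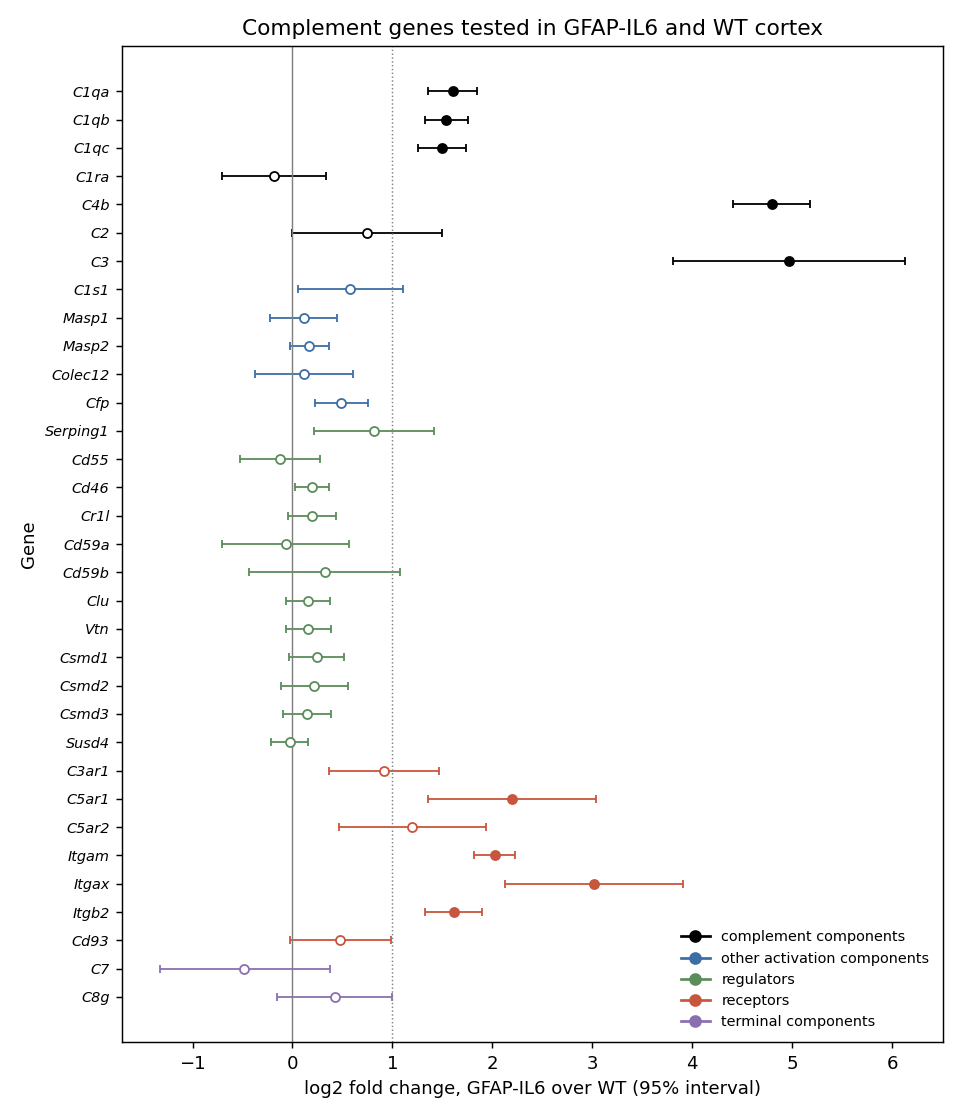
Points give the log2 fold change of GFAP-IL6 over WT with its 95% interval for complement genes tested, coloured by group. Filled points passed an adjusted p under 0.05, and the dotted line marks a log2 fold change of 1. C4b and C3 lie near 5, the C1q genes near 1.5, and most regulators near 0.

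Markers of other cells were read beside the components, and their part in the results was not tested. Of 8 endothelial markers, 4 passed higher, namely Cldn5, Pecam1, Flt1 and Ly6c1, against 2.65% of all genes tested. The 8 endothelial markers summed to between 136 and 157 CPM in WT and between 218 and 262 CPM in GFAP-IL6. Infiltrating leukocyte markers summed to between 0.523 and 1.49 CPM in WT and between 1.72 and 3.01 CPM in GFAP-IL6, none of 10 passed the low-count filter, and only Cd3d held 0 counts in all libraries. Cd3e, like Cd3d a T cell marker, had 0 counts in each WT library and 3, 1 and 2 counts in GFAP-IL6, and Ccr2, a monocyte marker, was counted 2, 11 and 8 times in the WT libraries and 14, 5 and 13 times in the GFAP-IL6 libraries. In CPM, the groups lay apart and higher in GFAP-IL6 for Cd3e, Ccr2 and Nkg7. For Ccr2, the highest WT library was at 0.656 CPM and the lowest GFAP-IL6 library at 0.660 CPM. Of all genes tested, 13.8% lay apart and higher, but those genes had passed the low-count filter, so the shares are not like for like. Perivascular macrophage markers summed to between 7.97 and 13.7 CPM in WT and between 9.68 and 16.5 CPM in GFAP-IL6, with 0 of 4 tested past an adjusted p under 0.05 by edgeR or DESeq2 and 0 at an unadjusted p under 0.05. Of 10 fibroblast and meningeal markers and 5 blood markers, 0 passed by either tool and 0 had an unadjusted p under 0.05, and the fibroblast sums of 410 to 738 CPM in WT and 480 to 710 CPM in GFAP-IL6 overlapped. Liver plasma proteins, which mark the liver, the main source of circulating complement, summed to at most 0.447 CPM in any library, and Alb held 0 counts. Neuronal and oligodendrocyte markers had medians of -0.13 and -0.21, with 0 passing in either list by edgeR. At an unadjusted p under 0.05 there were 5 neuronal and 0 oligodendrocyte markers, beside 3139 of all 15341 genes tested, and DESeq2 passed 1 and 0.

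GFAP-IL6 replicate 3, the highest of its group for Il6, was also the highest for Gfap, the C1q genes, C4b, C2 and C3, and the lowest of its group for C1ra and Cfb. The rise of the called components did not rest on it, since without it 5 components were still called.

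The genes whose level followed C1q most closely over the 6 libraries were Lyz2, Slco1a4, Laptm5, Bin2 and Fam187a, among 12086 genes with a mean of at least 5 CPM and with the members left out. Their Pearson r with C1q was between 0.9971 and 0.9998. Lyz2, the lysozyme of phagocytes, had a log2 fold change of 2.06, and Laptm5, a lysosomal protein of immune cells, one of 1.17. For C4b, the closest were Il1r1, Fam187a, Bin2, Plcg2 and Slco1a4, with r between 0.9980 and 0.9990. Il1r1, the receptor for interleukin-1, had a log2 fold change of 2.06. Slco1a4, Bin2 and Fam187a stood in both lists. With 2 groups of 3 libraries, any gene that differs cleanly between the groups has a high r, so these values describe the libraries and carry no test.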

How the data were processed

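Frontal cortex RNA from 3 GFAP-IL6 and 3 WT mice was analysed from the table of raw counts per gene that the authors deposited. According to the methods, reads were aligned to mm10 with STAR and uniquely aligned reads were counted on GENCODE vM6 genes with featureCounts, while the submitters' processing notes name STAR 2.4 and hg19, the build of human samples. Strand use and the treatment of overlapping genes are not given in the sources used here. Counts were tested with edgeR 4.0.16 in R 4.3.3 (quasi-likelihood test, TMM scaling, filterByExpr, group as the only term, Benjamini-Hochberg over 15341 genes), and the code was tested on simulated counts. CPM are TMM-scaled, and TPM were computed from the gene lengths in the table. Ratios used exact two-sided permutation tests. DESeq2 1.42.0, which the authors used, limma 3.58.1 (voom), other scalings and filters, thinning to 7559524 counts and single libraries left out were alternatives. Groups and replicate numbers came from sample titles. Intervals and floors from counts cover counting error only. All 9 members were named, and every library value was given for the 8 with a row. From the other complement lists, genes past an adjusted p of 0.05 were named, except where a gene is not reported here, with up to 2 of the most abundant others per list, and a few more chosen after their values were seen. The members, lists and rules were chosen with earlier results of these data known. Of 15 library pairs, none matched within sampling noise (chi-square per degree of freedom of at least 2.32).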

Additional observations from a re-analysis of the deposited data

How the results depend on the processing

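Under 14 alternative fits, the 5 calls among the complement components numbered 5 each time, and no called component lost its call or its direction. Leaving out 1 library at a time gave log2 fold changes between 1.52 and 1.69 for C1qa, 1.48 and 1.64 for C1qb, 1.38 and 1.57 for C1qc, 4.60 and 4.96 for C4b, 4.56 and 5.97 for C3, 0.52 and 0.99 for C2 and -0.31 and -0.06 for C1ra. C1ra moved to 0.00 when libraries were thinned to the smallest total, with an adjusted p of 0.998. In the other complement lists, 5 genes passed higher in the main comparison, 9 with no low-count filter, 7 with the replicate block and between 4 and 7 with a library left out. The genes gained without the filter were Cfp, Serping1, C3ar1 and C5ar2, those gained with the replicate block were Cfp and C3ar1, and the single loss in any setting was C5ar1 without GFAP-IL6 replicate 3. With a library left out, the C1qc to C1qb difference lay between -0.13 and 0.05, turning positive without WT replicate 3, and the Cfb to C2 difference lay between -0.60 and 0.12, turning positive without GFAP-IL6 replicate 3. The cause was not tested. The pairing of equal replicate numbers rested on correlations of 0.02 to 0.11 between deviations from the group means, below 0.1 in 2 of 3 pairs, and 4 of 6 libraries correlated best with their own number, so the numbers were not taken as pairs. With the replicate block, 750 genes passed an adjusted p under 0.05 against 439 without it, and 5 complement components were called. No low-count filter raised that count to 1154, and leaving out a library gave between 187 and 1061. Astrocyte markers past the threshold were 0 in the main comparison, 2 with no filter, DESeq2 or the replicate block, and 1 without WT replicate 2. The sum of C4a and C4b and the ratio of C4a to C4b were not run, because C4a had no row. Low counts limit C3 in WT, C2 and Cfb. For C2 and Cfb, the part of the overlap with Gm20547 in these low counts was not tested.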
